A study of Mus musculus with 9 samples.

Results

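Livers with hepatocellular carcinoma (HCC) that had been treated with microRNA-22 (miR-22) were compared with healthy livers, to ask which liver functions remained away from the healthy level after treatment and which did not differ from it. The comparison used 6 of the 9 sequenced livers, 3 with miR-22-treated HCC and 3 healthy, and all genes that passed a filter on low counts, 15717 of them. The 3 livers with untreated HCC stayed in the fit and are given where they place a value. The mice, all female, were 6 weeks old when obtained. In the HCC groups, tumors were induced by hydrodynamic tail vein injection, a rapid high-volume injection that carries plasmids into hepatocytes. The plasmids carried myristoylated AKT under the EF1α promoter and Nras-v12 under the Caggs promoter, each flanked by sleeping beauty transposon sites, together with the transposase that inserts them into the genome (RAS/AKT). The treated mice received an adeno-associated virus of serotype 8 (AAV8), a liver-tropic vector, carrying miR-22 at 1 week, and the livers were collected 5 weeks after the oncogenes. Mice of the untreated HCC group received a blank AAV8 at the same time. The healthy mice were wild type, served as an untreated baseline and received neither oncogene plasmids nor virus according to their labels, which do not give the age at which these livers were collected. The comparison therefore spans the tumors, the plasmid injection, the virus and miR-22 together, and these cannot be told apart in it. The labels disagree on the strain of the mice, given as C57BL/6 by the strain entry and as FVB/N by the protocol.

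The liver removes ammonia through the urea cycle, breaks down amino acids, oxidizes drugs and steroids with cytochrome P450 enzymes, makes cholesterol and bile acids, releases glucose during fasting and secretes most plasma proteins. These tasks are divided along the lobule, with urea formation mainly around the portal vein and P450 metabolism mainly around the central vein. Liver tumors are known to lose many of these programs and to turn on fetal genes, cell division and matrix. miR-22 is a small RNA that is processed from the transcript of the Mir22hg gene and pairs with target messages mainly through its seed, bases 2 to 8. Both mature arms are shown, since the 3p arm is the one usually called miR-22. They are taken from RefSeq (GRCm38.p6, plus strand of chromosome 11, chr11:75463772-75463793 for the 3p arm and chr11:75463734-75463755 for the 5p arm), written 5′ to 3′ with the seed in capitals.
mmu-miR-22-3p: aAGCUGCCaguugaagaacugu
mmu-miR-22-5p: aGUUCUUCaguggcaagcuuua

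The 6 libraries held 16664659 to 20964551 counts each. Within both groups, the chi-square between a pair of livers divided by its degrees of freedom was 6.09 to 30.1, so that the spread between livers was larger than counting error, and errors are given as SD over 3 livers or as the standard error (SE) of a log2 fold change. Normalized counts are scaled with edgeR's TMM factors, and log2 fold changes are miR-22-treated HCC minus healthy unless stated otherwise. Akt1, the mouse gene of the first oncogene, had 2105, 2002 and 2009 normalized counts in the healthy livers and 15470, 13030 and 21420 in the treated livers (log2 fold change 3.03, SE 0.195), and reads from the plasmid and from the mouse's own gene were not separated. Nras had 520.8 to 574.5 normalized counts in the healthy livers and 1034 to 1073 in the treated livers. The mature miR-22 is too short for these libraries and was not measured. Its host transcript Mir22hg had 1375, 1134 and 1096 normalized counts in the healthy livers and 633.6, 619.9 and 541.7 in the treated livers, a fall by 1.01 on the log2 scale. A library that stood apart was that of treated replicate 2, which alone among these 6 livers held transcripts of the exocrine pancreas at a high level. Pnlip, a pancreatic lipase, had 1249 normalized counts there and at most 1.24 in the other 5 livers, and Cpa1 and Prss2, pancreatic proteases, had 1006 and 992. Where a count of 4 or more genes called in a list changed by over 1.5 times without a single library, its value without that library is given below, and calls of 1 to 3 genes in a list moved by 1 or 2 genes when a liver was left out in several lists.

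At a Benjamini-Hochberg adjusted p under 0.05 in edgeR's quasi-likelihood test and a fold change over 1.5, 3772 of the 15717 genes differed between miR-22-treated HCC and healthy livers (24.0%). Of these, 2664 were higher (16.9% of all genes tested) and 1108 were lower (7.05%) in the treated livers. The values of the 3 treated and 3 healthy livers did not overlap for 3702 of the called genes, and 48.8% of all tested genes showed no overlap. The rises were larger than the falls: 1067 genes were called at more than 4-fold above healthy and 57 at more than 4-fold below. The balance of directions depended on the scaling, since 85.2% of the calls were rises with library totals alone and 70.6% with TMM, and the median log2 fold change over all genes was 0.21 with library totals alone and 0.02 with TMM. In the untreated HCC livers, 6417 genes differed from the same healthy livers (40.8%), 3575 higher (22.7%) and 2842 lower (18.1%). This balance also depended on the scaling, with 5986 higher and 1492 lower with library totals alone.

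A gene without a call can still differ. For this reason, a gene was placed near the healthy level only if the whole 95% confidence interval of its fold change, not adjusted for the number of genes, lay inside a 1.5-fold difference in either direction. This held for 5886 genes (37.4%). The other 6059 genes were neither called nor inside these limits, so that 3 livers per group did not settle whether they differed from healthy by 1.5-fold. A gene in this class or inside the limits can still differ by a smaller fold. In edgeR's test, 5732 genes had an adjusted p under 0.05 before the fold threshold. Every list of genes below is read against these 4 background shares, 16.9% higher, 7.05% lower, 37.4% inside and 24.0% called in either direction. For untreated HCC against healthy livers, the shares of all genes were 22.7% higher and 18.1% lower. For treated against untreated HCC, they were 8.32% higher and 5.47% lower. Genes that are silent in healthy liver entered the test only through the HCC livers, so the number of rises in a list of such genes is partly set by the filter.

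**Figure D1:**
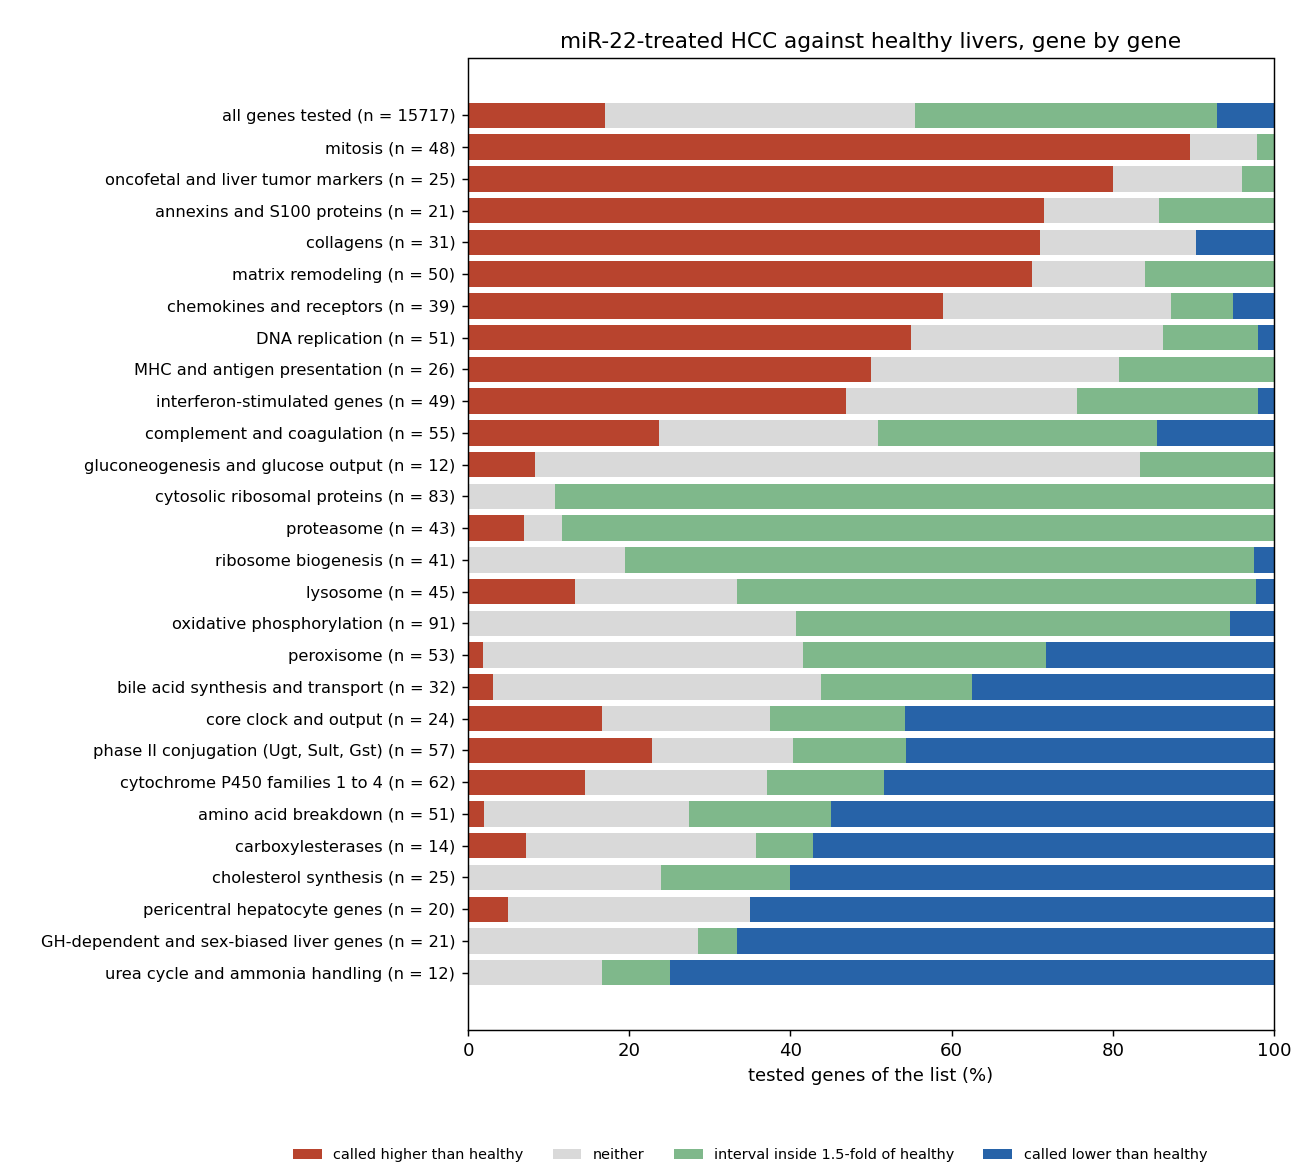
Share of the tested genes (horizontal axis, percent) of 27 gene lists and of all genes tested (top bar) that were called higher in miR-22-treated HCC than in healthy livers, called lower, had a 95% interval inside a 1.5-fold difference, or fell in neither class. The number of tested genes stands beside each list. Mitosis (89.6% higher) and the urea cycle (75.0% lower) lie at opposite ends, and ribosomal proteins (89.2% inside) lie between them.

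Markers of fetal liver and liver tumors remained far above the healthy level. Of 25 tested members of this list, 20 were higher, none was lower and 1 was inside the 1.5-fold limits, with a median log2 fold change of 4.28 against 0.02 over all genes. Afp, the fetal serum protein used as a marker of HCC, had 212.2, 337.4 and 278.2 normalized counts in the healthy livers and 16750, 10420 and 18180 in the treated livers. The lowest treated liver lay far above the highest healthy one (log2 fold change 5.78, SE 0.317). Gpc3, a cell-surface proteoglycan of HCC, had 15.7 ± 10.9 normalized counts (SD, n = 3) in healthy and 913 ± 166 in treated livers. Tspan8, Ly6d and Scd2 were the members with the smallest p, at log2 fold changes of 5.81, 6.22 and 4.64. Prom1, a progenitor marker, had 153.7, 398.5 and 441.3 normalized counts in the healthy livers and 1152, 951.4 and 1080 in the treated livers, so that it rose by less (log2 fold change 1.68, SE 0.279).

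Among genes with at least 10 counts in every treated library, the 6 largest fitted rises without overlap were those of Meltf, Ang5, Igf2, Bex1, Spink1 and Apela, all without a count in the healthy livers. They are given as lower bounds against a floor of 3 counts per library. Meltf (chr16:31697628-31717838, GRCm39), a membrane-bound transferrin family member, had 206.4, 103.9 and 259.3 normalized counts in the treated livers and was at least 54.1-fold higher. Igf2 (chr7:142204503-142220694, GRCm39), the fetal insulin-like growth factor, had 254.1, 127.4 and 122.7 and was at least 47.9-fold higher. Ang5, Bex1, Spink1 and Apela were at least 48.1-, 43.6-, 34.7- and 33.6-fold higher. Ang5 belongs to a family of near-identical ribonuclease genes, between which the reads could have been split. The treated and untreated HCC livers were not called different for Ang5, Igf2, Spink1 and Apela, whereas Meltf and Bex1 were lower in the treated than in the untreated livers (log2 fold changes of treated minus untreated HCC −1.45 and −1.10, edgeR adjusted p 0.024 and 0.018).

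Mitosis was the function with the largest share of rises among the lists examined. Of 48 tested mitosis genes, 43 were higher, none was lower and 1, Bub3, was inside the limits, with a median log2 fold change of 3.21. Mki67, the antigen Ki67 of cycling cells, had 106.1, 112.5 and 103.4 normalized counts in the healthy livers and 858.9, 676.8 and 1079 in the treated livers. Ccna2, cyclin A2, had 9.76, 13.5 and 19.2 in the healthy livers and 228.6, 202.9 and 314.7 in the treated livers. Every treated liver lay above every healthy liver for both genes, and treated replicate 4 was the highest for both. Tpx2, a spindle assembly factor, was higher by 3.85 on the log2 scale (SE 0.269). DNA replication genes were higher in 28 of 51, with a smaller median of 0.78. Rrm2, the small subunit of ribonucleotide reductase, had 69.3 to 77.0 normalized counts in the healthy livers and 411.7 to 553.7 in the treated livers. The single replication gene that went the other way was Tk1, thymidine kinase of the nucleotide salvage pathway, with 1587, 1334 and 1189 in the healthy livers and 708, 734.9 and 586 in the treated livers (log2 fold change −1.02, SE 0.125). Tk1 (chr11:117702770-117717042, GRCm39, minus strand) overlaps Afmid (chr11:117716712-117730734, plus strand), a gene of tryptophan breakdown that was also lower. The libraries did not separate strands, so reads could have been shared. The part of Afmid in the Tk1 value was not tested.

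The cell-cycle homology region (CHR) is a short promoter element of genes that peak in mitosis. Its letters TTTGAA, on either strand, occurred in the promoters (250 bases before to 50 bases after the start) of 27 of 39 mitosis genes with a RefSeq promoter (69.2%), against 15% of all 11501 tested genes with one. Of the 35 of these genes that were called higher, 24 held it, and of the 4 not called, 3 held it. The pair of matches of Mki67 is shown as the example with the smallest p, from GRCm38.p6 on the minus strand with the 6 letters in capitals, at chr7:135716478-135716507 and chr7:135716460-135716489. The windows overlap, and such a match is a description of the letters, not of binding.
Mki67 upstream match: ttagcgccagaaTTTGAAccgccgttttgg
Mki67 downstream match: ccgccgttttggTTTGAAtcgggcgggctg

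Most p53 targets and some inhibitors of the cell cycle were raised too. Of 32 tested p53 targets, 20 were higher and 2 lower (median log2 fold change 0.99). Cdkn1a, which encodes the CDK inhibitor p21, had 28.1, 13.5 and 36.2 normalized counts in the healthy livers and 693.5, 1054 and 1340 in the treated livers. Among 12 genes of D-type cyclins, their kinases, CDK inhibitors and Rb1, 4 were higher, 1 was lower and 4 were inside the limits. Cdkn2b and Cdkn2a, inhibitors of that list, were higher by 5.16 and 3.68 on the log2 scale, from few counts in the healthy livers (6.22 for Cdkn2b without healthy replicate 3, and 4.63 and 3.05 for Cdkn2a without healthy replicates 2 and 3). Gadd45a, a DNA damage gene, was lower by the fit (log2 fold change −1.42, SE 0.375), with 653.7, 220 and 183.3 in the healthy and 120 to 143.1 in the treated livers, and without healthy replicate 1, the highest liver, its log2 fold change was −0.63. Ccnd1, cyclin D1, was below the healthy level in the treated livers. It had 5416, 4504 and 5372 normalized counts in the healthy livers and 3702, 2889 and 3001 in the treated livers (log2 fold change −0.67, SE 0.124), whereas the untreated HCC livers had 5788 to 6991. The call against healthy was lost with library totals alone and with a replicate block.

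Lists of pathways that the oncogenes feed held genes that rose, genes that fell and genes near the healthy level. Among 23 genes of MAPK output and feedback, 8 were higher and 3 lower. Etv4, a transcription factor induced by this pathway, was at least 47.5-fold higher, with 0, 0 and 2.13 normalized counts in the healthy and 140.9, 136.1 and 222.4 in the treated livers. Dusp4, a phosphatase that limits MAPK, was higher by 2.47 on the log2 scale, and Phlda1 was lower by the fit at −1.38. Of 21 YAP and TEAD targets, 12 were higher and 2 lower. The rise with the smallest p was that of Ccn2, a secreted matrix regulator, with 51.2, 85.6 and 136.4 in the healthy and 2116, 1721 and 2632 in the treated livers. Ankrd1 had the largest rise of this list (log2 fold change 4.64). Of 25 genes of the PI3K-AKT pathway and its feedback, 5 were higher, 1 was lower and 12 were inside the limits, and 1 of the 5 was Akt1, in which reads of the injected oncogene were not separated. Pik3r1, the regulatory subunit of PI3K, was inside, at a log2 fold change of −0.04.

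Matrix genes were also among the functions that stayed raised. Of 31 tested collagens, 22 were higher and 3 lower, and of 50 genes of matrix remodeling, 35 were higher and none lower (median log2 fold changes 1.66 and 1.66). Col1a1, a chain of fibrillar collagen I, had 115.9, 125.9 and 94.9 normalized counts in the healthy livers and 2096, 1423 and 2297 in the treated livers. Col3a1 had 853.7, 900.9 and 786.7 in the healthy and 5584, 5050 and 6729 in the treated livers. Among the exceptions, Col20a1 and Col13a1 had log2 fold changes of −2.32 and −1.05. Spp1 (chr5:104582165-104589235, GRCm39), which encodes osteopontin, had 619.6, 479.2 and 460.5 in the healthy livers and 36520, 29630 and 51250 in the treated livers (log2 fold change 6.24, SE 0.301). Laminins and integrins were higher in 18 of 35 and lower in none. In whole liver, a higher or lower value cannot be told apart from more or fewer cells of the type that expresses the gene.

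Markers of stellate cells and myofibroblasts were higher in 4 of 8 (Col1a1, Acta2 and Tagln had the smallest p), and their summed level was 6014 to 7342 in healthy and 8546 to 9575 in treated livers. Acta2, the smooth muscle actin of activated stellate cells, had 47.97 to 67.2 normalized counts in the healthy livers and 235.2, 191.8 and 328.5 in the treated livers. The part that cell numbers have in the matrix results was not tested.

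Immune cell markers divided by cell type. All 6 markers of monocyte-derived macrophages were higher (median log2 fold change 2.72), and the same held for the 3 of 6 neutrophil markers that passed the filter (3.50). Lyz2, the lysozyme of myeloid cells, had 964.7, 949.8 and 936.9 normalized counts in the healthy livers and 2642, 2825 and 2759 in the treated livers. Ccr2, the receptor by which monocytes enter tissue, had 30.5, 35.5 and 42.6 in the healthy livers and 234.1, 136.1 and 276.9 in the treated livers. Among neutrophil genes, Cxcr2, a chemokine receptor, was at 1.22 to 3.20 in the healthy and 33.2 to 45.5 in the treated livers, and Ly6g was at 0 in all healthy livers and in 2 of the treated livers. The summed macrophage list ran from 1501 to 1665 in healthy livers, where Lyz2 was most of it, and from 32831 to 54538 in treated livers, where Spp1 was most of it. Spp1 also made up most of the cholangiocyte and progenitor list (572.4 to 815.9 and 30414 to 52662). Gpnmb, another macrophage gene, differed among the treated livers, with 153.1, 103.9 and 31.4. Kupffer cell genes, by contrast, stayed near the healthy level. Of 5 Kupffer markers, 4 were inside the 1.5-fold limits and none was called. Clec4f, a lectin of resident Kupffer cells, had 3585, 2852 and 3321 in the healthy livers and 3059, 3428 and 3292 in the treated livers (log2 fold change 0.00, 95% interval −0.26 to 0.26). Of 6 T cell markers, none was called and none was inside the limits. Their summed levels were 94.87 to 118.3 in healthy and 106.4 to 144.9 in treated livers, so that a difference in T cells was left undetermined.

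**Figure D2:**
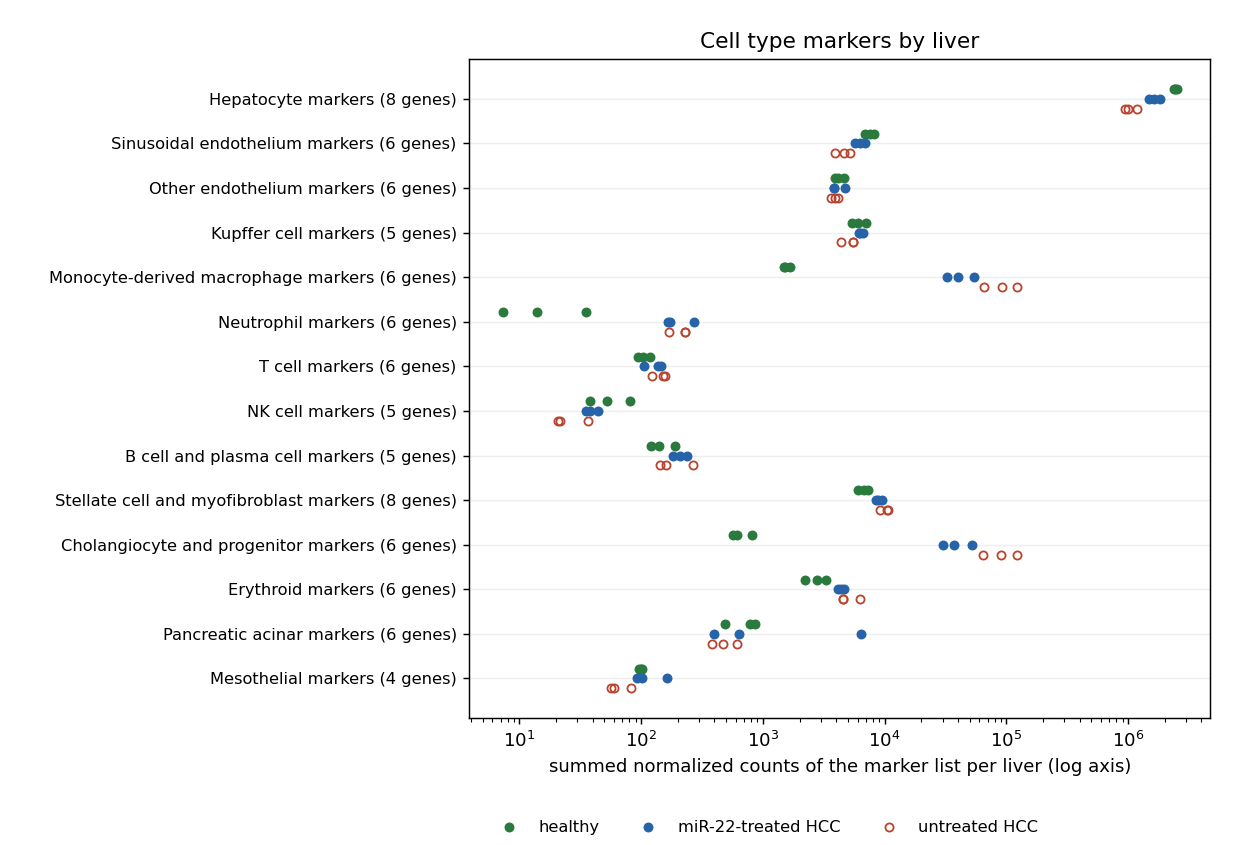
Summed normalized counts (log axis) of 14 lists of cell type markers in each of the 9 livers, with 1 point per liver: healthy, miR-22-treated HCC and untreated HCC (open). Kupffer cell sums overlap between healthy and treated livers, the macrophage and neutrophil sums do not, and a single treated liver stands apart at 6366 for pancreatic acinar markers.

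Inflammatory genes were also raised. Chemokines and their receptors were higher in 23 of 39 and lower in 2, and annexins and S100 proteins were higher in 15 of 21 and lower in none. Cxcl13, a B cell attractant, had 17.1, 9.78 and 4.26 normalized counts in the healthy and 257.4, 181.9 and 336.8 in the treated livers. Ccl20, an attractant of Th17 cells, was at least 23.6-fold higher. Cxcl12 went below the healthy level (log2 fold change −0.73, SE 0.148), a call that was lost with library totals alone, as did Cxcl11 (−2.09, SE 0.323). Of 48 genes of IL6, IL17 and TNF signaling, 23 were higher, 2 lower and 15 inside the limits, and 4 were lower without treated replicate 2. Lcn2, an iron-sequestering protein that IL6 and IL17 induce, had 124.4, 112.5 and 54.4 in the healthy livers and 16490, 16440 and 24440 in the treated livers. Lifr, a receptor of the IL6 family, was lower by the fit (log2 fold change −0.90). Acute-phase proteins were mixed, with 13 of 31 higher and 4 lower. Orm2, an acute-phase glycoprotein, had 115.9 to 145 in the healthy and 617 to 657.1 in the treated livers.

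Some antigen presentation and interferon genes were raised as well. Of 26 genes of MHC and antigen presentation, 13 were higher and none lower (median log2 fold change 0.65), and 13 were also higher in untreated HCC. None of the 26 was called between the treated and untreated HCC livers, where 13.8% of all genes were. Ctss, a protease of antigen processing, had 720.8, 491.4 and 652.3 normalized counts in the healthy livers, 1267, 1257 and 1376 in the treated livers and 1387, 1333 and 1213 in the untreated livers. Of 49 interferon-stimulated genes, 23 were higher and 1, Irf1, was lower, a call that was lost without healthy replicate 1 and without treated replicate 3. Ifit2, an antiviral RNA-binding protein, had 89.0, 97.8 and 91.7 in the healthy and 435, 382.3 and 287.9 in the treated livers, and Ifi27 had 396 to 581.8 and 1219 to 1691. Ifit2 and Ifi44 were not called between the HCC groups, and their log2 fold changes against healthy were 1.98 and 2.63 in treated and 1.98 and 2.41 in untreated HCC. H2-Q7 and H2-Q4 belong to a family of close paralogs, and reads could have been split among its members. The call of H2-Q4 was lost without healthy replicate 3.

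The letters GAAANNGAA, part of the interferon-stimulated response element, occurred on either strand in the promoters of 20 of 36 interferon-stimulated genes (55.6%) and of 8.82% of all 11501 genes. The share was 58.8% among the 17 called higher and 55.6% among the 18 not called. The match of Ifi44, an interferon-induced gene, is shown as that of the member with the smallest p that holds it (GRCm38.p6, minus strand, chr3:151749894-151749923, with the match in capitals, on the reverse strand).
Ifi44 match: aaagtttctcTTCATTTTCtacaggcttgg

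Some metabolic lists held many genes above the healthy level. Lipid droplet and lipid uptake genes were higher in 14 of 25 and lower in 3, pentose phosphate and NRF2 targets were higher in 11 of 25, and glycolysis and glucose uptake genes were higher in 10 of 25, with none lower in the last 2 lists. In the same order, 3, 8 and 6 genes of these lists were inside the limits. Cd36, a fatty acid transporter, had 509.8, 634.4 and 554.3 normalized counts in the healthy livers and 2992, 3925 and 4134 in the treated livers. Hkdc1, a hexokinase family member scarce in normal liver, had 6.40 to 15.9 in the healthy and 196.7 to 303.6 in the treated livers. Gstm3, a glutathione transferase, had 368.3, 564.7 and 545.8 in the healthy and 4336, 4688 and 5695 in the treated livers. Serine and one-carbon synthesis genes moved in both directions, with 8 of 20 higher and 7 lower. The serine-forming enzymes Phgdh and Psat1 were higher by 5.63 and 4.78 on the log2 scale, whereas Gnmt, which consumes S-adenosylmethionine in normal hepatocytes, had 22620, 25450 and 28650 in the healthy and 9717, 10330 and 6107 in the treated livers. Fatty acid synthesis was likewise split, with 6 of 21 higher and 6 lower. Scd1, a desaturase, had 57390 to 70110 in the healthy and 187100 to 234600 in the treated livers, and Thrsp, a lipogenic regulator, had 27670 to 40810 and 10610 to 17810. The even split was not kept without treated replicate 4, with 3 lower genes, or with library totals alone, with 7 higher and 2 lower.

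Removal of nitrogen was the function with the largest share of falls. Of 12 tested genes of the urea cycle and ammonia handling, 9 were lower (75.0%, against 7.05% of all genes), none was higher and 1 was inside the limits, with a median log2 fold change of −0.80. Cps1, which starts the cycle in mitochondria, had 115600, 144600 and 141400 normalized counts in the healthy livers and 65760, 73180 and 39790 in the treated livers. Arg1, which releases urea, had 28840, 29410 and 31090 in the healthy and 17800, 20120 and 14480 in the treated livers. Treated replicate 4 was the lowest of the 6 livers for both genes, and no treated liver reached a healthy one. Gls2 (chr10:128030316-128045873, GRCm39), the liver glutaminase that supplies ammonia to the cycle, had a log2 fold change of −1.05 (SE 0.183), and Nags, which makes the activator of Cps1, one of −0.84 (SE 0.131). Of the 3 genes without a call, Glud1, glutamate dehydrogenase, had 27470 to 30430 in the healthy and 27930 to 31560 in the treated livers and was inside the limits. Of the 12 genes, 7 were higher in the treated than in the untreated livers, for example Cps1 by 1.22 on the log2 scale (edgeR adjusted p 0.0033), and Nags was not (0.16, adjusted p 0.41).

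Amino acid breakdown was lower in 28 of 51 and higher in 1 (median log2 fold change −0.71). Afmid, of tryptophan breakdown, had 2098, 2096 and 2018 normalized counts in the healthy livers and 926.6, 850 and 632.2 in the treated livers. Its position overlaps that of Tk1, as given above. Gpt, the alanine aminotransferase, had 6746 to 7531 in the healthy and 3563 to 4444 in the treated livers. Of the same 51 genes, 43 were lower in untreated HCC, and 35 were higher in treated than in untreated HCC (8.32% of all genes were). The member that rose was Csad, an enzyme of taurine synthesis, with 1303, 404.6 and 524.4 in the healthy and 2972, 3718 and 4259 in the treated livers.

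Detoxification remained lower for many but not all members. Of 62 tested genes of cytochrome P450 families 1 to 4, 30 were lower, 9 higher and 9 inside the limits (median log2 fold change −0.55), and of 57 phase II conjugation enzymes, 26 were lower and 13 higher. With library totals alone, 16 of the phase II enzymes were lower. Cyp2a5, a coumarin hydroxylase, had 12700, 20000 and 16430 normalized counts in the healthy livers and 5426, 5883 and 6712 in the treated livers. Cyp1a2, of caffeine metabolism, had 10330, 14020 and 13060 in the healthy and 6016, 5229 and 3384 in the treated livers. Cyp4a12a (chr4:115156243-115190012, GRCm39), a fatty acid hydroxylase known to be male-biased in mice, went strongly the other way, with 3.66, 1.22 and 9.59 in the healthy and 1757, 2601 and 2493 in the treated livers (log2 fold change 8.79, SE 0.481, and 9.79 without healthy replicate 3). Cyp1b1, an estrogen hydroxylase, was higher by 5.06. Of the conjugating enzymes, Ugt2b37 and Gstt3 were lower by 1.06 and 1.67 on the log2 scale, and Sult4a1 was at least 48.2-fold higher. Carboxylesterases were lower in 8 of 14 and higher in 1. These families hold close paralogs, so values of single members such as Cyp2a22, Cyp3a59, Cyp4a12a and Ces1b are uncertain where the counting could have divided their reads. The largest fall of a conjugating enzyme was that of Sult2a6, with 151.2, 229.8 and 115.1 in the healthy and 21.1, 11.1 and 18.5 in the treated livers.

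By zone, pericentral genes were lower in 13 of 20 and higher in 1, with none inside the limits, and periportal genes were lower in 8 of 18 and higher in 1, with 5 inside. With library totals alone, 8 pericentral genes were lower. In untreated HCC, 11 pericentral and 13 periportal genes were lower, where 18.1% of all genes were. Of the pericentral genes, 5 were higher in treated than in untreated HCC and 1 was lower, and of the periportal genes, 11 were higher. Whether the zones differed was not tested. Apoa4, a periportal apolipoprotein, was the periportal gene that rose, with 9004 to 10480 normalized counts in the healthy and 26590, 46850 and 57390 in the treated livers.

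Genes under growth hormone control and with sex-biased expression were lower in 14 of 21 and higher in none, with a median of −1.14, the lowest among the lists of liver functions. Cyp2b9, a female-predominant P450, had 14420, 18230 and 17000 normalized counts in the healthy livers and 6574, 5543 and 4099 in the treated livers. Igfals, which stabilizes circulating insulin-like growth factors, had 4015 to 4907 in the healthy and 2565, 2152 and 1369 in the treated livers, and Trim24, a nuclear cofactor, had 2851 to 3350 and 1153 to 1616. Treated replicate 4 was the lowest for Cyp2b9 and Igfals, and without it 11 of the 21 genes were lower. All 3 treated livers lay below the healthy ones for Cyp2b9 and above them for the male-biased Cyp4a12a. Cyp4a12a was not in this hand-written list, so the absence of rises holds for the listed members only.

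Most cholesterol synthesis genes and a minority of bile acid genes were lower as well. Of 25 cholesterol synthesis genes, 15 were lower, none was higher and 4 were inside the limits. In untreated HCC, 16 were lower, against 18.1% of all genes. Between the HCC groups, 3 of the 25 were called, 2 higher and 1 lower in treated livers, a share close to the 13.8% of all genes. Pmvk, of the mevalonate pathway, had 1287, 1173 and 1168 normalized counts in the healthy, 719, 539.4 and 666.3 in the treated and 636.4, 545.6 and 565.3 in the untreated livers. Tm7sf2, a sterol reductase, had 2538 to 2812 in the healthy and 1162 to 1646 in the treated livers. The number of lower genes in this list ranged from 13 to 20 as each liver was left out, and it was 9 with library totals alone. The letters TCACNCCAC, searched as a sterol element, occurred in the promoters of 1 of 17 cholesterol synthesis genes (5.88%). This stood against 1.47% of all 11501 genes, and 0 of the 10 genes called lower held the letters. In bile acid synthesis and transport, 12 of 32 were lower and 1 higher. Akr1d1, the bile acid reductase, had 8857, 10980 and 10350 in the healthy and 5030, 4669 and 3320 in the treated livers. Only 4 members were lower without treated replicate 4, and likewise with library totals alone.

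Regulators and secreted products of hepatocytes were lower for a minority of members. Hepatocyte transcription factors were lower in 6 of 25 and higher in 1. Nr1i3, the xenobiotic receptor CAR, had 3059, 2703 and 2663 normalized counts in the healthy and 1056, 1079 and 1228 in the treated livers, and Cebpa, a differentiation factor, fell by 0.77 (SE 0.143). Cebpb rose instead, with 1508 to 1928 in the healthy, 2354 to 3803 in the treated and 1325 to 1595 in the untreated livers. Transporters were lower in 11 of 30 and higher in 5, peroxisomal genes lower in 15 of 53, and apolipoproteins lower in 7 of 22. With library totals alone, none of the apolipoproteins, 7 of the peroxisomal genes and 2 of the transcription factors were lower, and 4 apolipoproteins were lower without treated replicate 4. The 8 hepatocyte markers, which check the labelled tissue, were all well detected, with 3 lower and none higher, and their sum was 2382895 to 2501372 in healthy, 1472491 to 1819371 in treated and 951052 to 1193597 in untreated livers. Hamp, the hepcidin that limits iron uptake, and the related gene Hamp2 were lower. As members of a pair of similar genes, they could share reads. Hamp had 37030, 30450 and 29590 in the healthy and 11980, 14340 and 10780 in the treated livers, and Hamp2 had 911.1, 1380 and 815.4 in the healthy and 64.4, 42.1 and 37.8 in the treated livers (log2 fold change −4.43, SE 0.355), among the 6 largest falls that met the naming rule. The others were Sult2a6, the pseudogenes Mup-ps16 and Zbed4-ps1 and the gene Snai3, which were at least 9.85-, 10.2- and 9.45-fold lower, and Hhip, an inhibitor of hedgehog signaling, which fell by 3.18 on the log2 scale.

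Genes of the circadian clock moved in both directions. Of 24 clock and output genes, 11 were lower and 4 higher. The repressor Cry2 had 1610, 1524 and 1365 normalized counts in the healthy and 792.3, 831.4 and 775.2 in the treated livers, and the output factor Tef had 6261 to 7117 and 3472 to 4075. Per3, a period gene, had 3369, 3404 and 2759 in the healthy and 1521, 1304 and 1249 in the treated livers. The activators Arntl and Npas2 were higher, Arntl with 39.1 to 58.6 in the healthy and 82.9 to 144.9 in the treated livers. The hour of collection is not given, so it cannot be told apart from the group. The letters CACGTG, the E-box that Arntl and its partner bind, occurred in the promoters of 5 of 20 clock genes (25%) against 11.3% of all genes. A match of Tef is shown because Tef is among the members with the smallest p (GRCm38.p6, plus strand, chr15:81802534-81802563).
Tef match: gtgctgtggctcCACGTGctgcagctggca

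**Figure D3:**
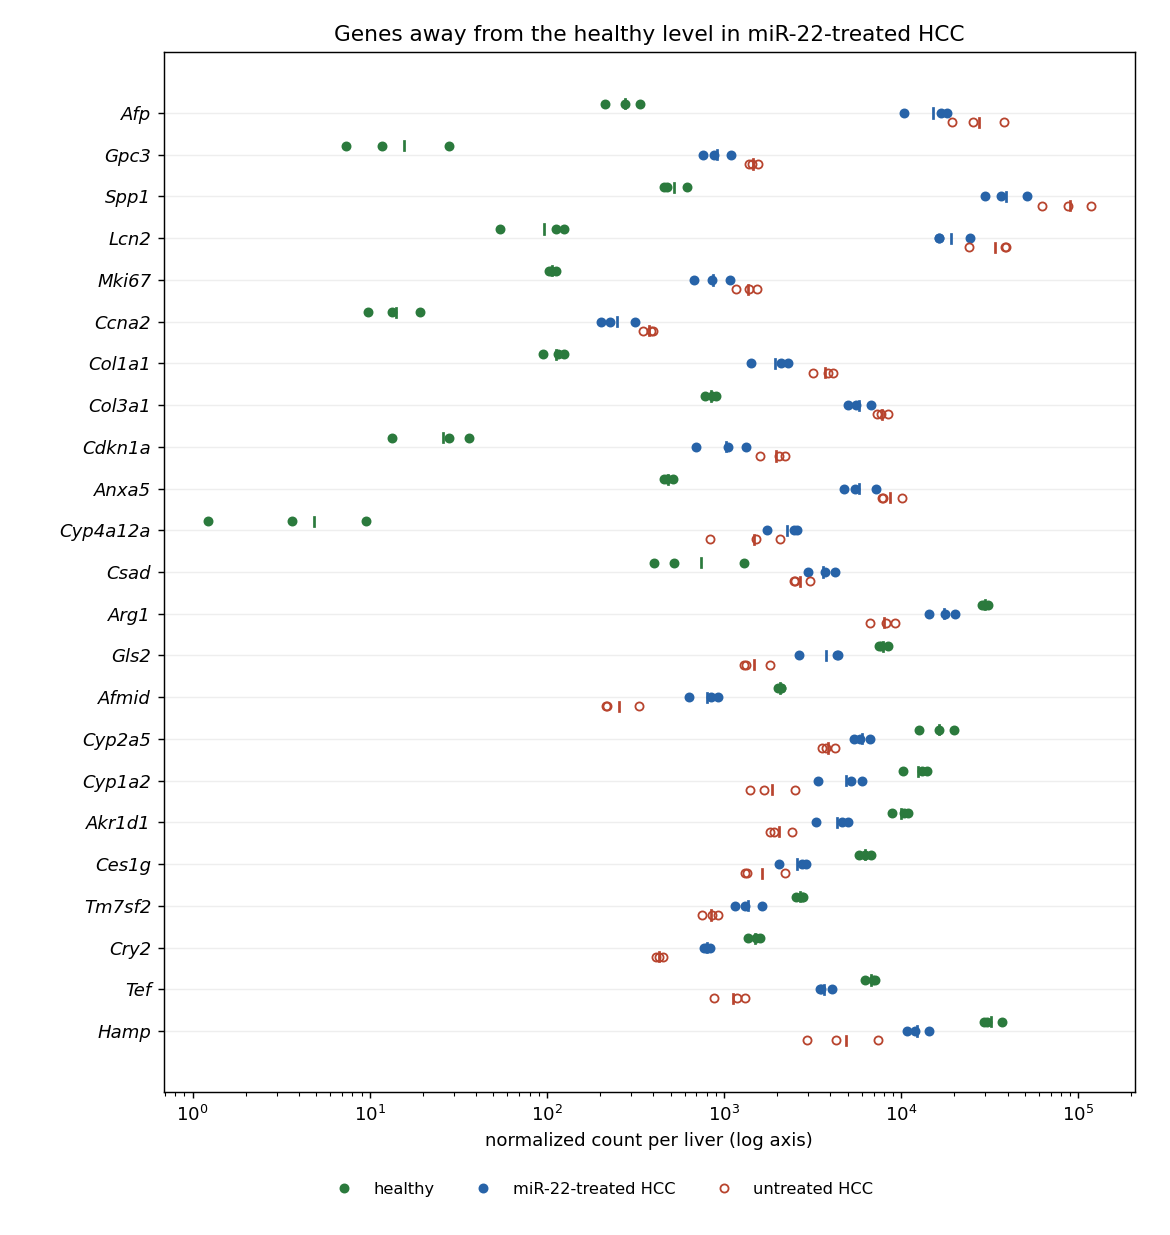
Normalized counts (log axis) of 23 genes called different from healthy, with 1 point per liver and a bar at the mean of 3 livers for healthy, miR-22-treated HCC and untreated HCC (open points). For every gene shown, the 3 treated livers lie on the same side of the 3 healthy livers, as for Afp (212.2 to 337.4 against 10420 to 18180).

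Among the lists of functions, ribosomal proteins, the proteasome, ribosome biogenesis and the lysosome, which every cell uses, had the largest shares near the healthy level. Of 83 cytosolic ribosomal proteins, 74 were inside the 1.5-fold limits (89.2%, against 37.4% of all genes) and none was called. Rpl4 had 10050, 10090 and 10100 normalized counts in the healthy and 9724, 10580 and 10930 in the treated livers. Of 43 proteasome genes, 38 were inside and 3 were higher (Psmb8, Psmd10 and Psmd8), and of 41 ribosome biogenesis genes, 32 were inside and 1 was lower. Psmd2, a proteasome subunit, had 3770 to 4129 in the healthy and 3945 to 4454 in the treated livers. Lysosomal genes were inside in 29 of 45, lower in 1 and higher in 6, among which Ctss and Cd68 are also genes of macrophages. The number of higher lysosomal genes was 10 with library totals alone. Lamp1, the lysosomal membrane protein, had 14200 to 14370 in the healthy and 13910 to 15220 in the treated livers. In untreated HCC, 1 ribosomal protein was lower and none was higher, 3 proteasome and 6 ribosome biogenesis genes were higher and none lower, and 7 lysosomal genes were higher and 6 lower. Each of these shares lay below that of all genes, 22.7% higher and 18.1% lower.

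Oxidative phosphorylation lay close to the healthy level but on its lower side. Of 91 genes, 49 were inside the limits (53.8%), 5 were lower and none was higher, with a median log2 fold change of −0.28. In untreated HCC, 42 of these genes were lower, with a median of −0.55, and 1 gene was called between the HCC groups. Atp5b, a subunit of ATP synthase, had 25930, 26480 and 26150 normalized counts in the healthy and 21450, 23930 and 22780 in the treated livers. With library totals alone, the median was −0.09 and 1 gene was lower, and 9 genes were lower without treated replicate 3. Mitochondrial fatty acid oxidation and ketogenesis genes were lower in 3 of 25, higher in 1 and inside in 7, and 1 was lower with library totals alone. Cpt1a, the entry step of fatty acid oxidation, had 6187 to 7830 in the healthy and 6265 to 7528 in the treated livers, and its log2 fold change was −0.01.

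Glucose output was a hepatic function with few calls and few genes near healthy. Of 12 genes of gluconeogenesis and glucose output, 1 was higher and none lower in treated HCC, whereas 10 were lower in untreated HCC and 9 were higher in treated than in untreated livers. The gene that rose, Pck2, is the mitochondrial form of the carboxykinase. Pck1, its cytosolic form and a rate-controlling enzyme of gluconeogenesis, had 42860, 42740 and 45450 normalized counts in the healthy, 41780, 61130 and 40890 in the treated and 5712, 6016 and 9860 in the untreated livers. G6pc, which releases free glucose, had 3219, 4853 and 5437 in the healthy and 6319, 8586 and 5761 in the treated livers. Tat, the tyrosine aminotransferase induced by glucocorticoids, had 33966, 39852 and 41072 in the healthy and 31681, 56913 and 17605 in the treated livers. The treated livers surrounded the healthy ones for Pck1 and Tat, and treated replicate 3 was the highest for all 3 genes. Only Pcx and Slc2a2 were inside the 1.5-fold limits. For the other 9, a difference of that size lay within the 95% interval.

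Blood clotting genes were divided among all classes. Of 55 complement and coagulation genes, 19 were inside, 13 were higher and 8 lower. All 3 fibrinogen chains were inside the limits. Fga had 82460, 69300 and 72050 normalized counts in the healthy and 73210, 75160 and 57740 in the treated livers, Fgb had 80420 to 99360 and 64830 to 89410, and Fgg had 53960 to 65610 and 44940 to 63060. Those that rose include Plat, an activator of fibrinolysis (log2 fold change 3.43), and those that fell include the clotting factors F5, F7 and F11 (−0.68, −0.81 and −0.64). Without treated replicate 4, 3 of these genes were lower, and 2 were with library totals alone. Retinoid metabolism (13 of 36 inside), heme and iron (14 of 31), hypoxia and HIF targets (11 of 28), metallothioneins and zinc transporters (13 of 24) and the unfolded protein and integrated stress response (15 of 33) had shares inside the limits of 36.1% to 54.2%, beside 37.4% of all genes. The hypoxia list also had 8 genes higher and 2 lower, the stress response list 8 and 3, heme and iron 5 and 4, retinoid metabolism 4 and 4, and metallothioneins and zinc transporters 4 and 1. Without healthy replicate 2, 5 stress response genes were higher, and without treated replicate 4, 2 retinoid genes were lower. Library totals alone gave 8 higher heme and iron genes, 2 lower retinoid genes and 0 lower stress response genes. Hif1a, the hypoxia factor, had 1296, 1402 and 1332 in the healthy and 1878, 1891 and 1778 in the treated livers. It was above healthy by less than the 1.5-fold threshold (log2 fold change 0.46, edgeR adjusted p 0.002). Endothelial markers other than sinusoidal ones were inside in 4 of 6, as Cdh5 with 696 to 880.1 in the healthy and 749.8 to 973.2 in the treated livers, whereas Cd34 was higher and Kdr was lower, the latter not without healthy replicate 2 or treated replicate 4.

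A further set of genes was chosen by its values and is given as a description. These genes were among the 6 with the largest changes in untreated HCC among genes with an interval inside the 1.5-fold limits in treated HCC. B3galt1, a galactosyltransferase, had 815.9, 808 and 550 normalized counts in the healthy, 833.3, 910.6 and 443.9 in the treated and 76.4, 95.6 and 97.8 in the untreated livers. Ppm1k, the phosphatase that activates breakdown of branched-chain amino acids, had 2017 to 2524 in the healthy, 1692 to 2245 in the treated and 275.5 to 404.4 in the untreated livers. Gpcpd1, of phospholipid breakdown, had 1864 to 2223, 1527 to 2400 and 434.6 to 519.6, and Slc7a2, a transporter of arginine, had 9774 to 11800, 8455 to 15030 and 2716 to 3104. Tcp11l2 had 452 to 561, 506.7 to 614.9 and 137 to 173.7. Erbb3, a receptor of the PI3K-AKT list that the same comparison places near healthy, had 4377, 4464 and 3865 in the healthy, 3870, 3462 and 3467 in the treated and 1317, 1243 and 1420 in the untreated livers.

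**Figure D4:**
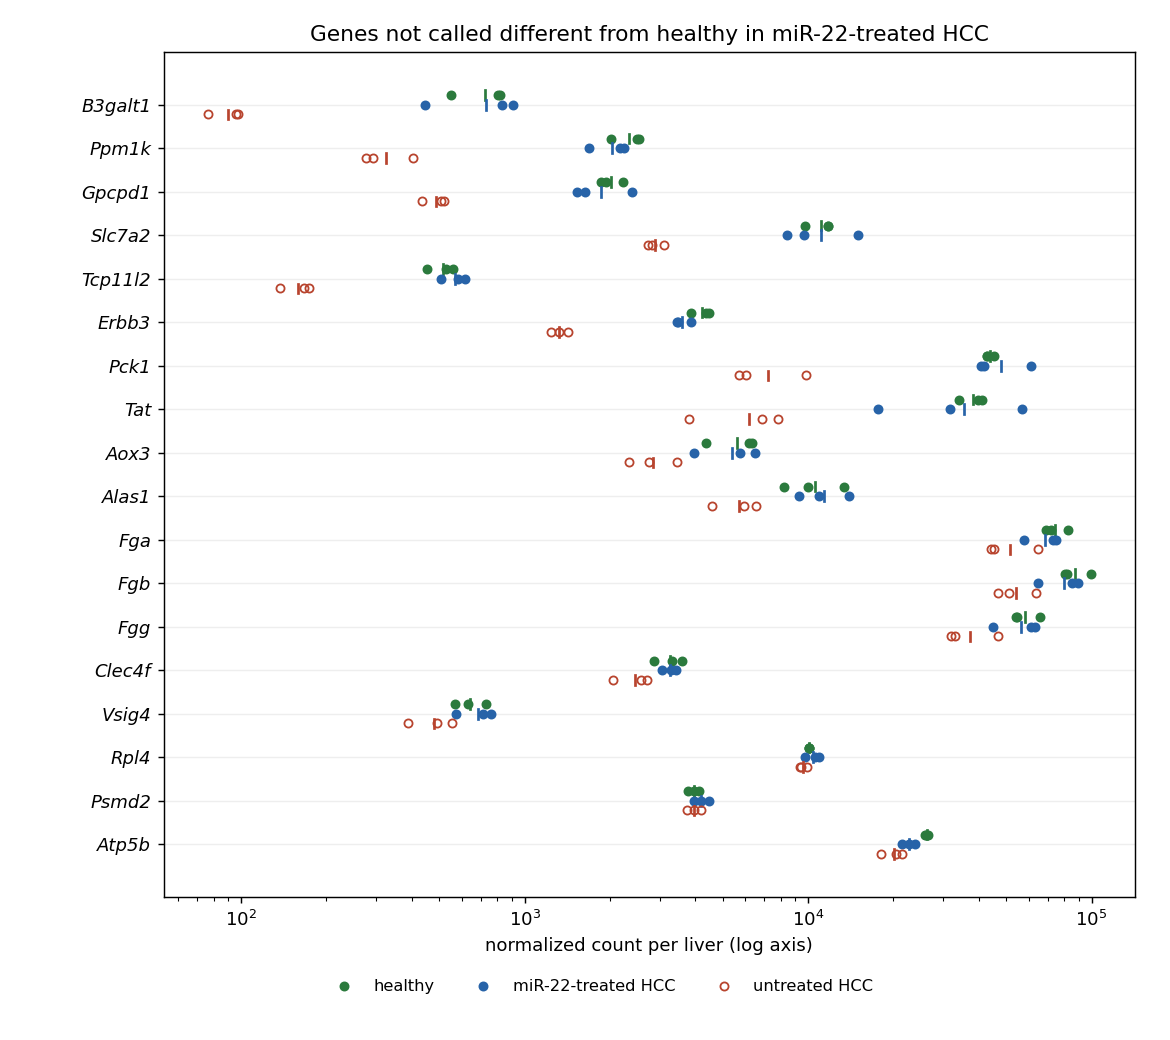
Normalized counts (log axis) of 18 genes that were not called different from healthy in miR-22-treated HCC, with 1 point per liver and a bar at the mean of 3 livers for healthy, treated and untreated HCC (open points). For B3galt1 and Erbb3 the untreated livers lie apart from both other groups, as for Erbb3 (1243 to 1420 against 3462 to 3870 in treated livers), and for Rpl4, Psmd2 and Atp5b the 3 groups lie close together.

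Set side by side, the medians of both HCC groups against the healthy livers, which the comparisons share, differed in their spacing from list to list. Mitosis stood at 3.21 in treated and 3.96 in untreated HCC, and oncofetal genes at 4.28 and 5.81. The urea cycle stood at −0.80 and −1.72, and gluconeogenesis at −0.12 and −1.05. Cholesterol synthesis (−0.69 and −0.78), pericentral genes (−0.68 and −0.86), DNA replication (0.78 and 0.82), MHC genes (0.65 and 0.70) and interferon genes (0.56 and 0.59) had close medians. In direct tests of treated against untreated HCC, 19 of 48 mitosis genes and 15 of 25 oncofetal genes were lower (5.47% of all genes), and 7 of 12 urea cycle genes were higher, whereas 2 of 51 replication genes were higher and 1 was lower.

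**Figure D5:**
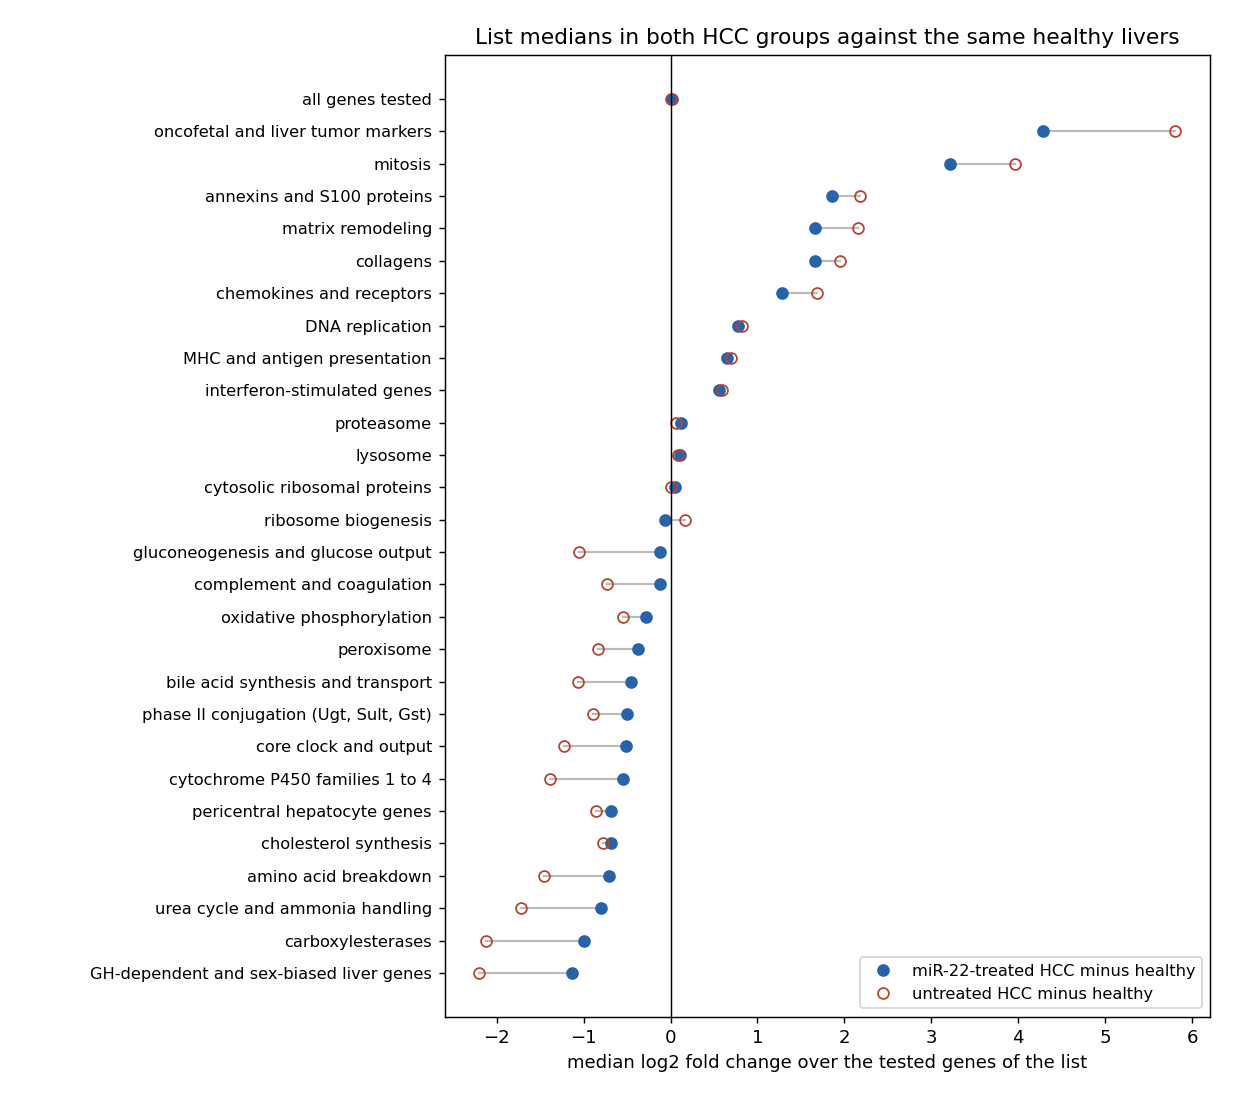
Median log2 fold change (horizontal axis) over the tested genes of 27 lists and of all genes tested (top), for miR-22-treated HCC minus healthy (filled) and untreated HCC minus healthy (open), both against the same 3 healthy livers. The points of a list are joined by a line, which is long for gluconeogenesis (−0.12 and −1.05) and short for cholesterol synthesis (−0.69 and −0.78).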

How the data were processed

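RNA of whole livers was sequenced from non-directional libraries as paired reads, so that sense and antisense transcripts of a gene were not separated. Per the paper's methods and the submitters' processing notes, the authors checked reads with FastQC 0.11.7, ran Salmon against GRCm39, summed the estimates to genes and used DESeq2 1.18. The counts that the authors deposited are whole numbers per gene, not normalized, and were used as deposited. The deposited normalized table was not used here. Salmon can divide reads among close paralogs.

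Counts were analyzed in R 4.3.3 with edgeR 4.0.16 (filterByExpr, TMM, quasi-likelihood F test, two-sided, all 9 libraries in 3 groups, no covariates). A call required both an edgeR p under 0.05 after Benjamini-Hochberg adjustment and more than a 1.5-fold difference. The 95% intervals used the SE and the degrees of freedom of the same test. A group with at most 3 counts in every library was at the floor, and its fold is a bound. Bounds cover counting error only. Labels name 3 separate livers per group, and p-values set the difference between groups against the spread between livers, estimated from all 9 libraries. On simulated counts of 14108 genes for this comparison, 93 of 98 genes with a 4-fold change and 74 of 102 with a 2-fold change were called, with 9 false calls. The intervals of 62.3% of unchanged genes and of 0 changed genes lay inside 1.5-fold.

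The 68 gene lists were written by hand, and 1 symbol was not found. The members and lists were chosen with earlier results of these data known. Genes were named by a rule: label checks and tumor markers, the 6 largest rises and 6 largest falls without overlap whose higher group had 10 or more counts per library, up to 3 list members with the smallest p and up to 2 against the list's direction, up to 3 of the most abundant members inside 1.5-fold, and 6 genes changed in untreated but inside in treated HCC. Bub3, Cps1, Glud1, Pck1, Pck2, G6pc, Tat, Plat, F5, F7, F11, Cd34, Kdr, Cd68, Psmb8, Psmd10, Psmd8, Gpnmb, Ly6g, Hif1a, Pnlip, Cpa1 and Prss2 were named after their values were seen. Some genes that the rule names are not reported here. Gene positions are from GENCODE vM39 (GRCm39), and sequences are from RefSeq (GRCm38.p6).

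Alternatives were DESeq2 1.42.0, DESeq2 size factors, upper-quartile factors, library totals alone, no filter, at least 10 counts in every library, a fit of 2 groups, limma-trend (limma 3.58.1, prior count 1), a block for the replicate number, glmTreat, no fold threshold, a 99% interval, a 2-fold limit and each liver left out. Those for untreated HCC were added after seeing the data. Figures were drawn with Python 3.11.15 and matplotlib 3.10.9.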

Additional observations from a re-analysis of the deposited data

How the results depend on the processing

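The count of 3772 genes that differed between miR-22-treated HCC and healthy livers stayed within 1.5 times under the alternatives other than edgeR's glmTreat, which tests each fold against 1.5 and gave 2010 genes (1716 higher and 294 lower), and no fold threshold, which gave 5732 (2373 lower). With at least 10 counts in every library, 12836 genes were tested and 1756 were higher, since genes near silence in healthy liver are then left out. Library totals alone gave 593 lower genes, against 1108, and moved the median of all genes by 0.188 on the log2 scale. Each liver left out in turn gave 3195 to 3759 genes, 2329 to 2639 higher and 866 to 1220 lower, with the lowest total without treated replicate 4. The 5886 genes inside the 1.5-fold limits were 4348 with a 99% interval, 9585 with a 2-fold limit and 5129 to 5802 with a liver left out. The untreated count of 6417 ranged from 5999 to 6470 with a liver left out. It was 7478 with library totals alone (5986 higher and 1492 lower) and 4873 with at least 10 counts in every library. Healthy and treated livers share replicate numbers 2 and 3 only. Deviations of same-numbered livers had correlations of 0.0175 and 0.0256 across genes, so that the numbers did not pair the samples, and a replicate block added to the model called 3044 genes (2171 higher and 873 lower) with 4700 inside the limits, and 5863 genes in untreated HCC. Among list counts of 3 or more printed above, the block moved by over 1.5 times DNA replication (28 to 18), stress response (8 to 5) and clock (4 to 2) higher, and bile acid (12 to 7), retinoid (4 to 2), complement and coagulation (8 to 5), apolipoprotein (7 to 3) and MAPK (3 to 1) lower. Of 220 named genes, 168 were called and none reversed. Of these, 17 lost their call under at least 1 alternative, 15 of them with library totals alone. Bbc3, Ces2c, Irf1 and Traf3ip2 lost it under 4 or more. Members of the lists of T, NK and B cell markers had few counts, and whether depth limited their calls was not tested.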
